A study of Mus musculus with 12 samples.

Results

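The genes described here are 10 markers of the cell layers of the hippocampus, out of 29608 genes with a named probe on the array. Of these, 6 mark granule cells of the dentate gyrus (Prox1, C1ql2, Dsp, Lct, Tdo2 and Calb1), 3 mark pyramidal cells of the CA1 field (Fibcd1, Wfs1 and Pou3f1), and Zbtb20, which both layers express, was counted in neither class. They were chosen by name, for where in the hippocampus they are known to be expressed, but with earlier results of these data known. The counts of members called below may thus not be independent of that choice. Each gene was taken as every non-control probe that carries its symbol in the array files. This gave 13 probes in 22 spots, and all 10 genes had at least 1 probe.

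The dentate gyrus is the entry of the hippocampal circuit: its densely packed granule cells receive cortical input and send mossy fibres to the CA3 field, whose pyramidal cells in turn reach CA1, the main output field. Prox1, a homeobox transcription factor, is required for granule cell identity and separates these cells from the pyramidal fields in the adult forebrain. Calb1, a calcium-buffering protein, is abundant in granule cells but also found in CA1 and in interneurons, so it is the least specific of the 6.

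Hippocampal RNA of 12 female mice, about 12 weeks old and killed in diestrus, was measured on 6 Agilent 2-colour arrays, with 4 mice for each of 3 phenotypes. All 3 carry the MRL background. MRL/lpr mice have the loss-of-function Fas allele and develop lupus-like disease, mice labelled Fn14ko (strain Fn14koMRL) are backcrossed littermates that share the Fas allele and lack Fn14, the receptor of the cytokine TWEAK, and MRL/+ mice (strain MRL/MpJ) carry neither change and were purchased elsewhere, so source and phenotype cannot be told apart either. The questions addressed are whether the markers of either layer differ between diseased mice and the control background, and whether they differ when Fn14 is lacking.

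Several facts of the series bear on every value below. Mice were hybridized as pairs within a phenotype, with odd-numbered replicates in Cy3 and even-numbered ones in Cy5. The pair of arrays of 1 phenotype came from a single slide, so slide and phenotype cannot be told apart. The array of MRL/lpr replicates 3 and 4 was weak, with 25.2% and 19.6% of spots well above background, compared with 66.0% and 60.8% in replicates 1 and 2. MRL/+ replicates 2 and 4, the Cy5 channels of that phenotype, had only 29.6% and 31.8% of spots well above background, and a median negative-control foreground of 208 and 211, whereas the other 10 samples lay between 33.2 and 90.6. Tnfrsf12a, the gene of Fn14, was measured above background in each of the mice labelled Fn14ko, at 2.91 to 5.08 times the channel median against 3.43 to 12.9 in MRL/+ (limma, log2 difference -0.53, adjusted p = 0.625). The sources used here do not give the deleted part, so whether this probe lies in it is not known, and it did not bear the label out. The free-text descriptions name the cortex, whereas source and tissue give the hippocampus.

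The probes are shown because they decide what was measured, and because the 2 for Dsp gave different patterns. They are 60 bases long and are written 5′ to 3′ in lower case, whole where the C1ql2, Tdo2 or 2nd Dsp probe is meant and as the first 30 bases otherwise. No part is in capitals. Positions are those of the array files in the mm9 build, and the files give no exon or UTR for them.
Prox1, chr1:191945785-191945844, minus strand: acgtttgttttcttagctggatttttgtgt
C1ql2, chr1:122238262-122238321, plus strand: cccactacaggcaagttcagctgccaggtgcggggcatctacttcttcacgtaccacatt
Dsp, probe in 10 spots, chr13:38290121-38290180, plus strand: aaattacactgactactggtggcttagtac
Dsp, probe in 1 spot, chr13:38285480-38286579, plus strand: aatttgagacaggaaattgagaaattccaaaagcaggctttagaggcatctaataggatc
Lct, chr1:130181389-130181448, minus strand: ctcatttcagggtttgatggtagactcaag
Tdo2, chr3:81767918-81770928, minus strand: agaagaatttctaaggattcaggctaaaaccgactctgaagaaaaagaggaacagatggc
Fibcd1, chr2:31669627-31669686, minus strand: atcgaaaatctttccaagcctaggttggct
Wfs1, chr5:37357424-37357483, minus strand: atctcttctgagtaccccaggacttgggaa
The single-spot Dsp probe and the Tdo2 probe cover 1100 and 3011 bases of genome with their 60 bases, so each joins stretches that are apart in the genome. The other 11 probes match 60 contiguous bases.

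The stretches before the start sites of Dsp and Lct are shown because both genes were called higher in MRL/lpr than in either other phenotype, as described below, while these sequences differ in composition. They are the 250 bases before the start from RefSeq in GRCm38.p6, 5′ to 3′ on the gene's strand, with the GC box GGGCGG or its reverse complement CCGCCC in capitals.
Dsp, chr13:38151044-38151293, plus strand: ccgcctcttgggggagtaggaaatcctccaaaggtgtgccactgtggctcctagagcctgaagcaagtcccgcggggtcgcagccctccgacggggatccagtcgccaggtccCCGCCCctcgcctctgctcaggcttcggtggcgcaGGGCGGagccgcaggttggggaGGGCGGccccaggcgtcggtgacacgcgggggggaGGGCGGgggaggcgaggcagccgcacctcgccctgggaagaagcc
Lct, chr1:128328319-128328568, minus strand: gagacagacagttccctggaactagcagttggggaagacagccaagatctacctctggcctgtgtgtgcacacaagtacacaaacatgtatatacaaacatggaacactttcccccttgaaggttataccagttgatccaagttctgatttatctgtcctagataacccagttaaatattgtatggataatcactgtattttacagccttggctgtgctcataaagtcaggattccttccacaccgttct
The Dsp stretch was 72.4% G and C and held 4 GC boxes, while the Lct stretch was 42.8% G and C and held 0. The median over all 32851 such stretches was 52.4%, and 32.7% of them held a GC box on either strand. Sequences were found for 8 of the 10 members.

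A level is given as a multiple of the channel's median. For C1ql2, Lct, Zbtb20, Fibcd1, Wfs1 and Pou3f1 it comes from spots that passed the filter on dim and flagged spots in all 12 samples, and for Prox1, Dsp, Tdo2 and Calb1, which had no such spot, from all spots. The medians of those sets differ, so levels are compared between samples but not between genes. Since the tissue was measured in bulk, fewer cells of a type and less RNA per cell cannot be told apart.

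Among the dentate markers, Prox1 stood at 2.85, 2.30, 7.34 and 5.24 in MRL/lpr replicates 1 to 4. It stood at 0.498, 0.404, 0.242 and 0.457 in the mice labelled Fn14ko, and at 0.482, 0.681, 0.481 and 0.636 in MRL/+. All 4 MRL/lpr samples were above all 8 others, and in the Cy5 samples of the other phenotypes the probe was not well above background. The mean level was 4.43 ± 2.32 (SD, n = 4) in MRL/lpr, 0.400 ± 0.112 in mice labelled Fn14ko and 0.570 ± 0.104 in MRL/+, and the last 2 overlapped.

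Dsp encodes desmoplakin, which anchors intermediate filaments at desmosomes and in the brain is largely a granule cell transcript. Its levels were 3.73, 2.74, 9.97 and 5.67 in MRL/lpr, 0.171, 0.206, 0.138 and 0.254 in mice labelled Fn14ko, whereas MRL/+ had 0.105, 0.622, 0.110 and 0.543. The MRL/lpr mice were again above every other sample, and the 2 MRL/+ channels of high background were above the other 2. The probes went apart, as the plot of both Dsp probes shows. The one in 10 spots was at 7.41 and 5.38 in MRL/lpr replicates 1 and 2, at 1.59 and 1.01 on the weak array and at 0.169 to 0.530 elsewhere. The single-spot probe was at 18.4 and 10.3 on the weak array, but at 0.0402 and 0.111 in MRL/lpr replicates 1 and 2 and at most 0.714 elsewhere, and it was well above background on the weak array alone. Fitted alone, the first probe gave a log2 fold change of 3.20 against MRL/+ (limma, adjusted p = 0.0303) and the second 2.70 (adjusted p = 0.439).

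**Figure D1:**
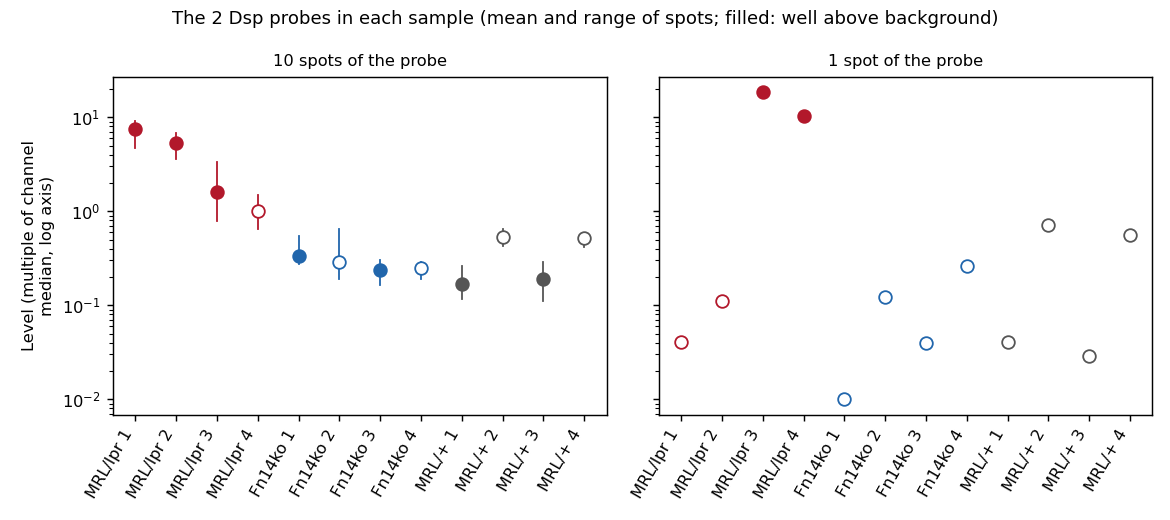
Level of each Dsp probe in the 12 samples, as a multiple of the channel median over all spots on a log axis; points are means of the probe's spots, vertical lines the range of its spots, and filled points have at least 1 spot well above background. The probe in 10 spots is highest in MRL/lpr 1 and 2, the probe in 1 spot in MRL/lpr 3 and 4; Fn14ko stands for the mice labelled so.

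Lct, the intestinal lactase that also marks granule cells in mouse atlases, stood at 1.04, 0.816, 1.25 and 0.904 in MRL/lpr, at 0.0806, 0.116, 0.140 and 0.105 in mice labelled Fn14ko, and at 0.130, 0.160, 0.156 and 0.158 in MRL/+. The lowest MRL/lpr sample was thus above the highest of the other 8 with filtered spots. With all spots kept MRL/lpr replicate 4 was at 2.96, below MRL/+ replicates 1 and 3 (3.12 and 3.99) and replicate 3 of the mice labelled Fn14ko (3.76), so the groups overlapped. With filtered spots the SD within a phenotype was 18.7%, 22.3% and 9.45% of its mean. C1ql2, a secreted synapse organizer of mossy fibre terminals, was at 0.275, 0.207, 0.368 and 0.526 in MRL/lpr and at 0.0482, 0.0437, 0.0323 and 0.0539 in mice labelled Fn14ko. In MRL/+ it was at 0.0505 and 0.0583 in the Cy3 samples and at 0.204 and 0.180 in the Cy5 samples of high background, the higher of which lay just under the lowest MRL/lpr value. With all spots kept, C1ql2 was at 4.43, 3.03, 2.49 and 1.73 in MRL/lpr and at 1.21, 1.11, 1.49 and 1.26 in MRL/+. The weak array was then the lower one within MRL/lpr. Its probe was not well above background on the weak array or in the Cy5 samples of MRL/+.

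Tdo2 and Calb1 did not share that pattern. Tdo2, which starts the breakdown of tryptophan, was at 0.540, 0.471, 0.910 and 1.21 in MRL/lpr, at 0.0917, 0.430, 0.0997 and 0.680 in mice labelled Fn14ko and at 0.0751, 1.59, 0.0692 and 1.11 in MRL/+. It was well above background in MRL/lpr replicates 1 and 2 and in no other sample, and the groups overlapped. Since the weak array did not measure it above background either, no fold is given. The fit gave an adjusted p of 0.0926 against mice labelled Fn14ko and 0.383 against MRL/+ (limma).

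Calb1 was at 3.76, 2.89, 1.06 and 0.956 in MRL/lpr, at 4.86, 3.73, 4.25 and 3.73 in mice labelled Fn14ko and at 4.47, 1.83, 4.56 and 1.95 in MRL/+. Its low values were those of the weak array and of the MRL/+ channels of high background, and its 2 probes ran alike. With the weak array left out, Calb1 was between 0.645 and 0.914 in all 10 samples, relative to the median of the spots valid in those.

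Zbtb20, a zinc-finger repressor required for CA1 development and also expressed in granule cells, was at 1.70, 1.34, 5.00 and 8.05 in MRL/lpr. It was at 0.930, 0.497, 0.919 and 0.526 in mice labelled Fn14ko and at 0.598, 0.528, 0.577 and 0.533 in MRL/+. MRL/lpr was above all others, with its 2 highest values on the weak array, and the Cy3 samples of mice labelled Fn14ko were above their Cy5 samples. With all spots its 2 probes differed on the weak array: the one at chr16:43619030-43619089 stood at 27.4, 19.7, 33.8 and 26.4 in MRL/lpr, the one at chr16:43622673-43622732 at 3.64, 2.85, 0.870 and 0.989. Fitted alone with all spots, neither passed against MRL/+ (limma, log2 fold change 1.93, adjusted p = 0.0671, and 0.54, adjusted p = 0.608).

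Of the CA1 markers, Fibcd1, a transmembrane receptor of acetylated molecules, was at 0.143, 0.0917, 1.41 and 1.475 in MRL/lpr, at 0.0177 to 0.0200 in mice labelled Fn14ko and at 0.0307, 0.113, 0.0266 and 0.0753 in MRL/+. The weak array thus read far above the other MRL/lpr array, and with filtered spots 1 MRL/+ sample of high background overlapped MRL/lpr. With all spots Fibcd1 was at 1.34 to 9.52 in MRL/lpr and at 0.526 to 0.739 in MRL/+, without overlap. Wfs1, an endoplasmic reticulum protein and a standard marker of CA1 pyramidal cells, was at 4.77, 6.81, 0.875 and 1.07 in MRL/lpr, at 4.10, 6.74, 4.51 and 6.93 in mice labelled Fn14ko and at 4.30, 5.13, 3.43 and 5.11 in MRL/+. With these filtered spots only the 2 samples of the weak array stood apart, on the low side. With all spots MRL/+ replicates 2 and 4 were low too, at 28.0 and 35.7 beside 103 and 87.6 in replicates 1 and 3. The mice labelled Fn14ko, at 107.5 to 147, were then above every other sample. The adjusted p with all spots was 0.0718 for MRL/lpr against them and 0.589 for them against MRL/+ (limma). Pou3f1, a POU-domain transcription factor, was at 1.30, 1.42, 3.17 and 2.35 in MRL/lpr, at 0.699 to 0.961 in mice labelled Fn14ko and at 1.16, 0.418, 1.09 and 0.432 in MRL/+, where the channels of high background were the lower ones.

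**Figure D2:**
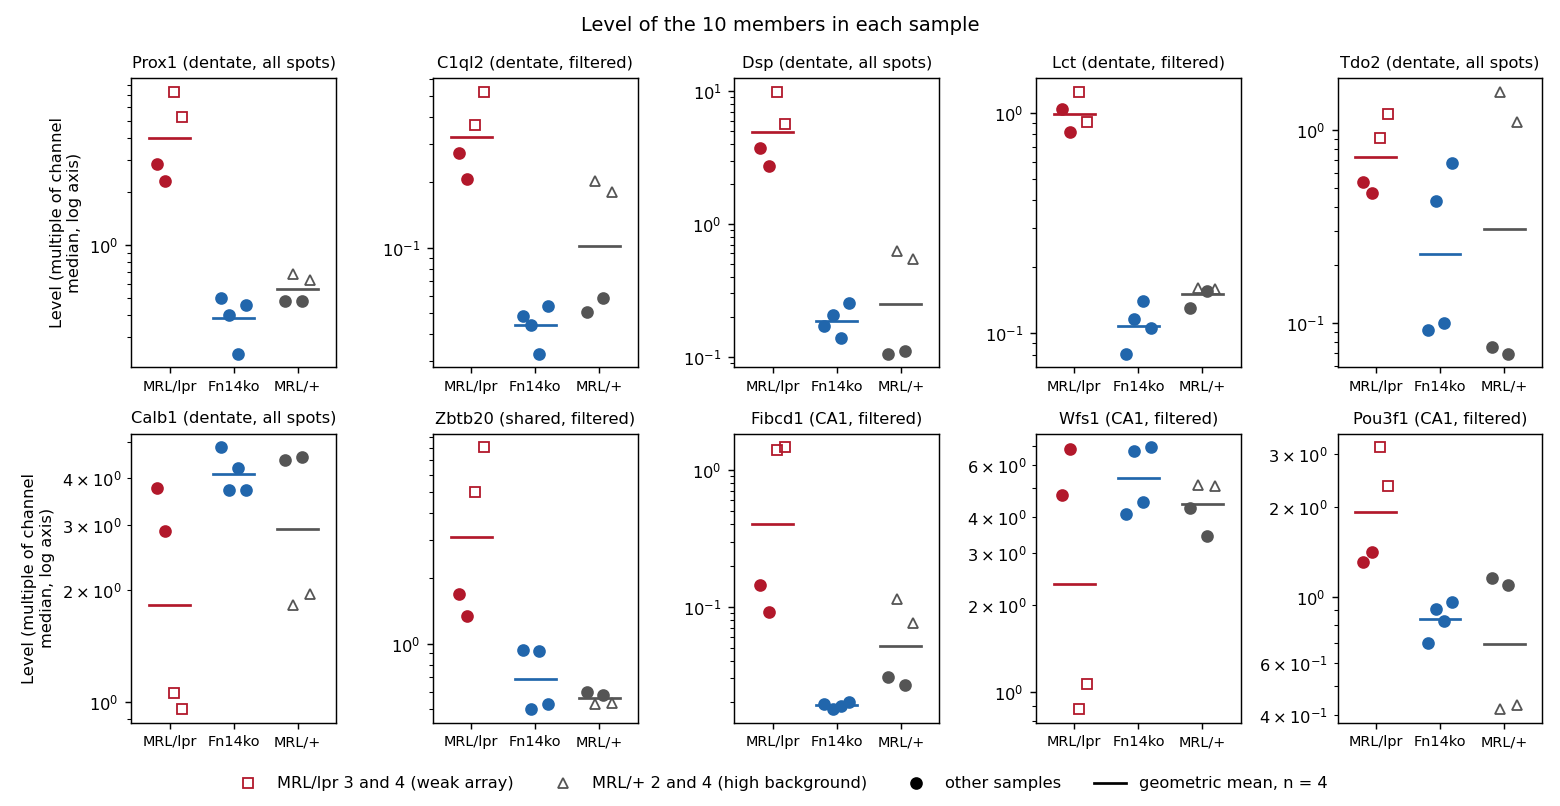
Level of each of the 10 members in the 12 samples, as a multiple of the channel median on a log axis, from filtered spots or all spots as each panel says; horizontal lines are geometric means of 4 samples, open squares the weak MRL/lpr array, open triangles the MRL/+ channels of high background. Prox1, Dsp and Lct are higher in all 4 MRL/lpr samples than in the 8 others (for Lct with filtered spots, as plotted, but not with all spots), whereas Calb1 and Wfs1 are lower only on the weak array among the MRL/lpr samples; Fn14ko stands for the mice labelled so.

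Against MRL/+, 5 of the 10 members rose in MRL/lpr and 0 fell, at an adjusted p under 0.05 in limma with the Benjamini-Hochberg adjustment over all genes of the fit. Among all genes, 3.46% of the 8864 in the filtered set and 0.605% of the 29608 in the set of all spots were called higher, and 5.71% and 0.388% lower. The 5 were the granule cell markers Dsp (log2 fold change 4.29, SE 0.56, adjusted p = 0.00553), Prox1 (2.83, SE 0.41, adjusted p = 0.00993) and Lct (2.71, SE 0.29, adjusted p = 0.000978), with Zbtb20 (2.47, SE 0.50, adjusted p = 0.0174) and the CA1 marker Pou3f1 (1.48, SE 0.38, adjusted p = 0.0368). In the Cy5 samples of MRL/+ none of Dsp, Prox1 and Lct was well above background, nor was Pou3f1 in replicate 2. The sizes of these differences are therefore uncertain.

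C1ql2 (1.67, SE 0.56, adjusted p = 0.0730) and Fibcd1 (2.98, SE 1.02, adjusted p = 0.0759) missed the threshold, as did Tdo2, Calb1 (-0.68, SE 0.47, adjusted p = 0.487) and Wfs1 (-0.92, SE 0.56, adjusted p = 0.246). The groups did not overlap for 6 members (Lct and Pou3f1 with filtered spots only), all higher in MRL/lpr. These were the 5 called and C1ql2. Each then had the smallest p the exact permutation test allows with 4 mice against 4, 0.0286 (two-sided). Fibcd1 was without overlap with all spots only, at the same exact permutation p. Among all genes, 4.58% in the filtered set and 2.31% with all spots were without overlap in this direction. With all spots, the median log2 fold change was 1.70 over the 6 dentate markers and 0.94 over the 3 CA1 markers, beside -0.25 over all genes.

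These calls treat the 2 mice of an array as independent. With the array as a random block, whose estimated correlation was 0.710, 0 of the 10 members passed in limma (adjusted p = 0.0846 for Lct, 0.313 for Prox1, 0.317 for Dsp) and 6 had an unadjusted p under 0.05, and the Prox1 call was also lost without MRL/+ replicate 1 or 3 (adjusted p = 0.0724 and 0.0718). The Zbtb20 call was lost without MRL/+ replicate 2, 3 or 4 (limma, adjusted p = 0.0532 to 0.0620), and that of Pou3f1 on leaving out any 1 sample other than MRL/lpr replicate 1 or 2 (0.0514 to 0.127). The calls of Zbtb20 and Pou3f1 were lost with all spots kept (adjusted p = 0.0611 and 0.488) and so was that of Lct (0.0586), while Fibcd1 then passed (0.0305).

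Against mice labelled Fn14ko, 6 of the 10 members rose in MRL/lpr and 0 fell, where 2.21% of all genes in the filtered set and 4.75% with all spots were called higher, and 1.77% and 8.04% lower. Both comparisons of MRL/lpr use the same 4 MRL/lpr samples. The 4 granule cell markers Dsp (4.71, SE 0.56, adjusted p = 0.00173), Prox1 (3.37, SE 0.41, adjusted p = 0.00173), Lct (3.19, SE 0.29, adjusted p = 0.000641) and C1ql2 (2.89, SE 0.56, adjusted p = 0.0224) were among them. The others were Fibcd1 (4.42, SE 1.02, adjusted p = 0.0393) and Zbtb20 (2.17, SE 0.50, adjusted p = 0.0372). Dsp, Prox1 and Fibcd1 were not well above background in the Cy5 samples labelled Fn14ko, so the sizes of their differences are uncertain.

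Tdo2, Calb1 (-1.18, SE 0.47, adjusted p = 0.0856), Wfs1 (-1.21, SE 0.56, adjusted p = 0.143) and Pou3f1 (1.19, SE 0.38, adjusted p = 0.0820) missed the threshold, and with all spots kept the Pou3f1 difference was -0.26. For 7 members, the 6 called and Pou3f1, no MRL/lpr sample overlapped the other group, each with exact permutation p = 0.0286. The same held, in this direction, for 11.2% of genes in the filtered set and 5.18% with all spots. Of the 7 members, Lct, Zbtb20 and Pou3f1 overlapped with all spots. The median log2 fold change with all spots was 1.71 over the dentate markers and -0.26 over the CA1 markers, beside -0.08 over all genes.

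With the array as a random block, again 0 of the 10 passed (limma, adjusted p = 0.0519 for Lct, 0.0600 for Prox1, 0.0998 for Dsp), with 6 at an unadjusted p under 0.05. With all spots kept, Zbtb20 was at 0.70 (adjusted p = 0.230) and C1ql2 at 1.43 (adjusted p = 0.0221). The Zbtb20 call was also lost when any 1 sample other than MRL/lpr replicate 1 or 2 was left out, and so was the Fibcd1 call, while C1ql2 lost its call without MRL/lpr replicate 3 or without replicate 2, 3 or 4 of the mice labelled Fn14ko (limma, adjusted p = 0.0561 to 0.0905).

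Between mice labelled Fn14ko and MRL/+, 0 of the 10 members passed the threshold in limma, where 0.519% of all genes in the filtered set and 0% with all spots did, and 1 member, C1ql2, had an unadjusted p under 0.05 in that fit (-1.22, SE 0.56). The methods' heteroscedastic test also passed 0 after adjustment and 1 before it. The log2 differences of the granule cell markers Prox1, Dsp and Lct were -0.54, -0.42 and -0.48, each with a 95% confidence interval that includes 0. Fibcd1 was lower in all 4 mice labelled Fn14ko than in any MRL/+ sample (log2 difference -1.44, adjusted p = 0.602), a pattern without overlap that 14.1% of genes in the filtered set had in this direction.

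**Figure D3:**
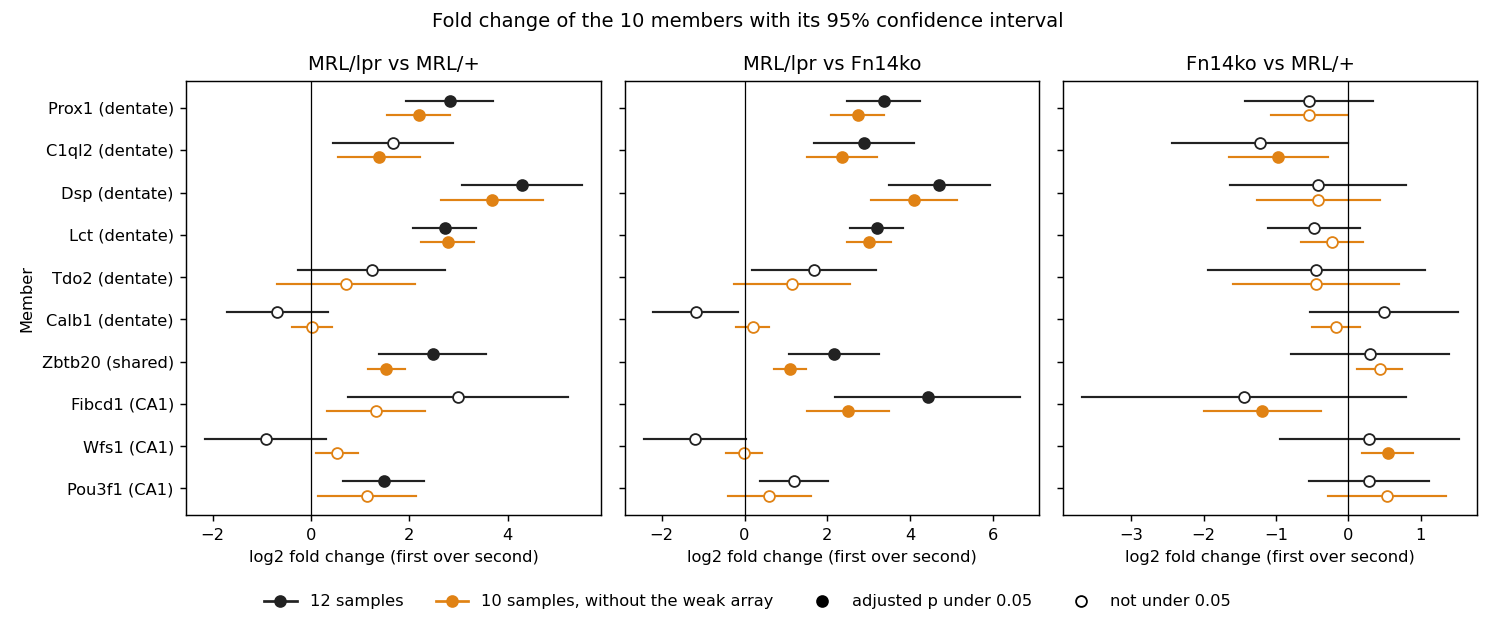
Log2 fold change of each member in the 3 comparisons, first-named phenotype over the second, with all 12 samples (black) and with the 10 samples outside the weak array (orange); lines are 95% confidence intervals from limma, filled points have an adjusted p under 0.05. Prox1, Dsp, Lct and Zbtb20 are above 0 in both comparisons of MRL/lpr with and without the weak array, and the Calb1 and Wfs1 differences from MRL/+ change sign without it; Fn14ko stands for the mice labelled so.

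Without the weak array, 2 MRL/lpr mice, from 1 array, were compared with 4 and 4. Against MRL/+, 5 members rose and 0 fell, at 6.11% of genes called higher and 9.61% lower in the filtered set of these 10 samples, and 6.88% and 27.8% with all spots. Dsp was at a log2 fold change of 3.68 (SE 0.49, limma adjusted p = 0.000233), Lct at 2.78 (SE 0.24, adjusted p = 7.78e-05), Prox1 at 2.19 (SE 0.30, adjusted p = 0.000280), Zbtb20 at 1.53 (SE 0.17, adjusted p = 0.000345) and C1ql2 at 1.39 (SE 0.38, adjusted p = 0.0329). Thus C1ql2 replaced Pou3f1 (1.14, SE 0.45, adjusted p = 0.109) among the calls. The C1ql2 call was lost without MRL/lpr replicate 1 (0.76, limma adjusted p = 0.295), MRL/+ replicate 1 or 3 (adjusted p = 0.0610 and 0.0650) or replicate 4 of the mice labelled Fn14ko (adjusted p = 0.0505). Fibcd1 was at 1.32 (SE 0.45, adjusted p = 0.0700), Calb1 was at 0.02 (SE 0.18) and Wfs1 turned to 0.53 (SE 0.20, adjusted p = 0.0924). With all spots kept, Fibcd1 passed (1.47, SE 0.24, limma adjusted p = 0.000647). Calb1 (0.18, adjusted p = 0.736) and Wfs1 (0.68, adjusted p = 0.350) did not.

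Against mice labelled Fn14ko, the 6 members called without the weak array were the same as with it. Dsp stood at 4.09, Lct at 3.00, Prox1 at 2.73, Fibcd1 at 2.51, C1ql2 at 2.36 and Zbtb20 at 1.10 (limma, adjusted p = 6.04e-05 to 0.00708), at 4.09% of genes called higher and 5.03% lower in the filtered set, and 5.77% and 8.86% with all spots. Without MRL/lpr replicate 1 the calls of C1ql2 and Fibcd1 were lost (limma, adjusted p = 0.105 and 0.175), and without replicate 2 that of Zbtb20 (adjusted p = 0.0564), which also failed with all spots kept (0.59, adjusted p = 0.294). Wfs1 differed by -0.02 (95% confidence interval -0.45 to 0.42) and Calb1 by 0.19 (-0.21 to 0.60). With all spots kept, Wfs1 differed by -0.53 (-1.64 to 0.58) and Calb1 by -0.32 (-1.03 to 0.39). With 2 mice against 4 the exact permutation test cannot go below 0.0667, which Prox1, Dsp and Lct reached in both comparisons. With the array as a random block, 8 members passed against MRL/+ and 7 against mice labelled Fn14ko, where the MRL/lpr group was a single array. The share of all genes passing with this block is not given, so these counts cannot be set beside it. Unlike with 12 samples, the block here lowered the adjusted p, for Prox1 against MRL/+ from 0.000280 to 8.34e-06 (limma). Its estimated correlation in these 10 samples is not given, so these counts are not read as stronger evidence.

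Between mice labelled Fn14ko and MRL/+, 3 members passed in these 10 samples, beside 21.1% of all genes in the filtered set and 25.4% with all spots. They were C1ql2 (-0.97, limma adjusted p = 0.0482), Fibcd1 (-1.19, adjusted p = 0.0429) and Wfs1 (0.54, adjusted p = 0.0375). Neither phenotype lost a sample here, while the set of valid spots and the shared spread changed. With all spots kept, the calls of C1ql2 (-0.30, adjusted p = 0.264) and Fibcd1 (-0.52, adjusted p = 0.0562) were lost. Wfs1 (1.21, adjusted p = 0.0499) and Zbtb20 (1.10, adjusted p = 0.0300) then passed. With filtered spots the C1ql2 and Fibcd1 differences were -0.41 and -0.54 among Cy3 samples. They were -1.53 and -1.84 among Cy5 samples, where MRL/+ had the high background, and 0 members passed without those 2 MRL/+ channels.

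The same split bears on MRL/lpr against MRL/+. In Cy3, where MRL/lpr replicate 1 met MRL/+ replicates 1 and 3, the log2 difference was 5.11 for Dsp, 2.82 for Lct, 2.57 for Prox1, 2.29 for C1ql2 and 2.28 for Fibcd1. In Cy5, where MRL/lpr replicate 2 met the channels of high background, it was 2.24, 2.73, 1.81, 0.48 and 0.36. Of these 5, Lct had the smallest gap between dyes. Among the other members called with 12 samples, Zbtb20 differed by 1.52 in Cy3 and 1.54 in Cy5, and Pou3f1 by 0.17 and 2.11. Against mice labelled Fn14ko, Dsp, Lct, Prox1, C1ql2 and Fibcd1 differed by 2.71 or more in Cy3 and by 2.01 or more in Cy5.

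A factor that multiplies all signals of a channel cancels when CA1 markers are subtracted from dentate markers within a sample, but background added to the signals does not. Tdo2, well above background only in MRL/lpr replicates 1 and 2, is part of the dentate mean. The mean log2 level of the 6 dentate markers minus that of the 3 CA1 markers, from all spots, was -2.18, -2.43, -1.66 and -1.10 in MRL/lpr, -3.88, -3.65, -4.21 and -3.42 in mice labelled Fn14ko, and -4.34, -1.72, -4.12 and -1.93 in MRL/+. Every MRL/lpr sample was thus above every mouse labelled Fn14ko, while the MRL/+ channels of high background fell among the MRL/lpr values and the other 2 MRL/+ samples at the bottom. The means were -1.84 ± 0.59, -3.79 ± 0.34 and -3.03 ± 1.39 (SD, n = 4 each), a difference of 1.19 from MRL/+ and 1.94 from mice labelled Fn14ko, with no test, since the score was built from chosen genes. Without the weak array the differences were 0.72 and 1.48, and without the MRL/+ channels of high background as well the first was 1.93. In MRL/lpr replicates 1 and 2 the dentate mean was 1.77 and 1.38, and in the other phenotypes it lay from -0.74 to 0.04, whereas their CA1 mean was 3.95 and 3.81, beside 3.30 to 3.68 in the 6 samples of the other phenotypes with a lower background.

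**Figure D4:**
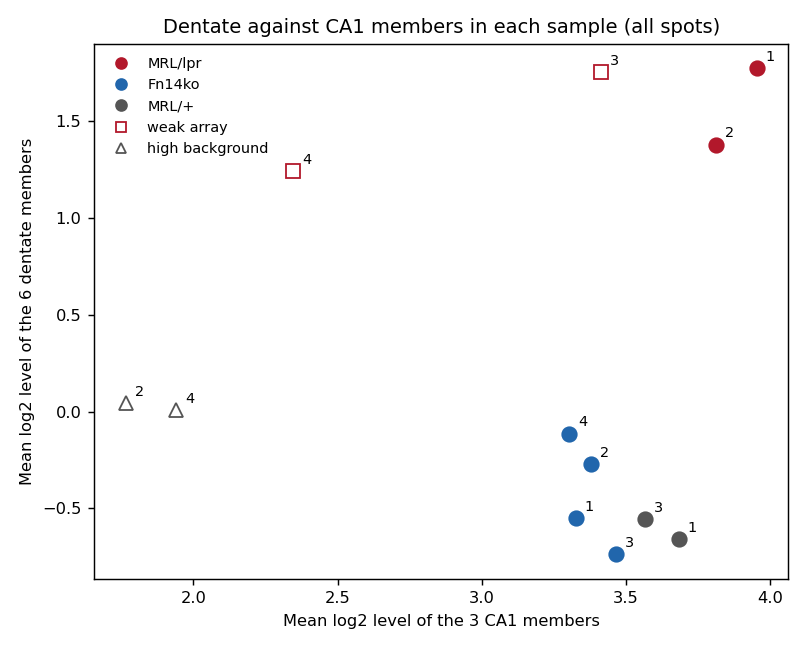
Mean log2 level of the 6 dentate markers (vertical axis) against that of the 3 CA1 markers (horizontal axis), 1 point a sample, numbered by replicate. The 4 MRL/lpr samples lie above all others on the dentate axis, and the samples furthest to the left on the CA1 axis are the MRL/+ channels of high background and MRL/lpr replicate 4; Fn14ko stands for the mice labelled so.

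Other genes known from the dentate gyrus did not move as a block. Of 9 such genes, 1 rose and 1 fell in MRL/lpr against MRL/+, with a median log2 fold change of 0.46, and 1 rose against mice labelled Fn14ko. Stxbp6, a regulator of vesicle fusion, fell by 1.31 against MRL/+ (SE 0.33, limma adjusted p = 0.0363). Without the weak array 2 of the 9 rose in each comparison and 0 fell. Among them Dock10, a guanine nucleotide exchange factor, rose against MRL/+ (1.51, SE 0.27, limma adjusted p = 0.00486), and C1ql3, a secreted synapse organizer related to C1ql2, rose against mice labelled Fn14ko (1.02, SE 0.27, adjusted p = 0.0414).

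Of 8 further CA1 genes, 0 passed in limma with 12 samples against either phenotype, while 3 against MRL/+ and 1 against mice labelled Fn14ko had an unadjusted p under 0.05. Without the weak array 1 rose and 2 fell against MRL/+, and 2 rose against mice labelled Fn14ko. Spink8, a secreted protease inhibitor and CA1 gene, then rose by 4.06 (SE 0.46, adjusted p = 0.000376) against MRL/+ and by 4.14 (SE 0.46, adjusted p = 0.000578) against mice labelled Fn14ko. It stood at 11.46 and 16.2 in MRL/lpr replicates 1 and 2, at 1.55 and 0.617 on the weak array and at 0.490 to 1.504 elsewhere, with all spots. Of 6 CA3 genes and 5 CA2 genes, 1 and 0 rose in limma against MRL/+ with 12 samples (2 of the CA2 genes at an unadjusted p under 0.05), and 2 and 2 without the weak array, where 0 of either list fell.

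Markers of tissue outside the hippocampus were counted beside the members. The summed level of 7 genes of cortical layers was 17.1 to 36.5 in MRL/lpr, 128 to 201 in mice labelled Fn14ko and 61.1 to 233 in MRL/+, with all spots. Of the 7, 3 fell in MRL/lpr against MRL/+ and 4 against mice labelled Fn14ko with 12 samples, and 4 and 5 without the weak array, where 1, Fezf2, rose against the latter (0.93, SE 0.25, adjusted p = 0.0424). Lamp5, of upper-layer neurons, fell by 3.17 (SE 0.23, limma adjusted p = 0.000120) and 2.38 (SE 0.23, adjusted p = 0.000641), and Cux2, an upper-layer transcription factor, by 3.37 (SE 0.54, adjusted p = 0.0165) and 3.54 (SE 0.54, adjusted p = 0.00506). Rorb, of layer IV neurons, fell by 2.41 and 2.17 on the log2 scale. Tbr1, which marks deep-layer projection neurons, stood at 7.56, 6.80, 1.26 and 1.02 in MRL/lpr, at 34.2 to 46.4 in mice labelled Fn14ko and at 51.7, 14.2, 49.1 and 13.8 in MRL/+.

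The summed level of 8 genes of the choroid plexus, the epithelium that makes cerebrospinal fluid and lies beside the dentate gyrus and fimbria, was 71.7 to 613 in MRL/lpr, 11.6 to 144 in mice labelled Fn14ko and 13.3 to 29.3 in MRL/+. Of the 8, 1 rose against MRL/+ and 2 against mice labelled Fn14ko with 12 samples, and 4 and 5 without the weak array. Ttr, the thyroid hormone carrier of this epithelium, rose by 3.33 (SE 0.88, limma adjusted p = 0.0399) and 3.55 (SE 0.88, adjusted p = 0.0454). The striatal list (9 genes) reached 131 to 466 in mice labelled Fn14ko, against 31.9 to 64.9 in MRL/lpr and 26.3 to 183 in MRL/+, and 4 of its genes were lower in MRL/lpr than in the mice labelled Fn14ko. The hypothalamic list (6 genes) reached 407 in replicate 1 of the latter and at most 11.8 in MRL/+, and 0 of its genes passed in limma with 12 samples (at an unadjusted p under 0.05, 0 against MRL/+ and 3 against mice labelled Fn14ko). The part of these tissues in the differences of the dentate and CA1 markers was not tested.

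**Figure D5:**
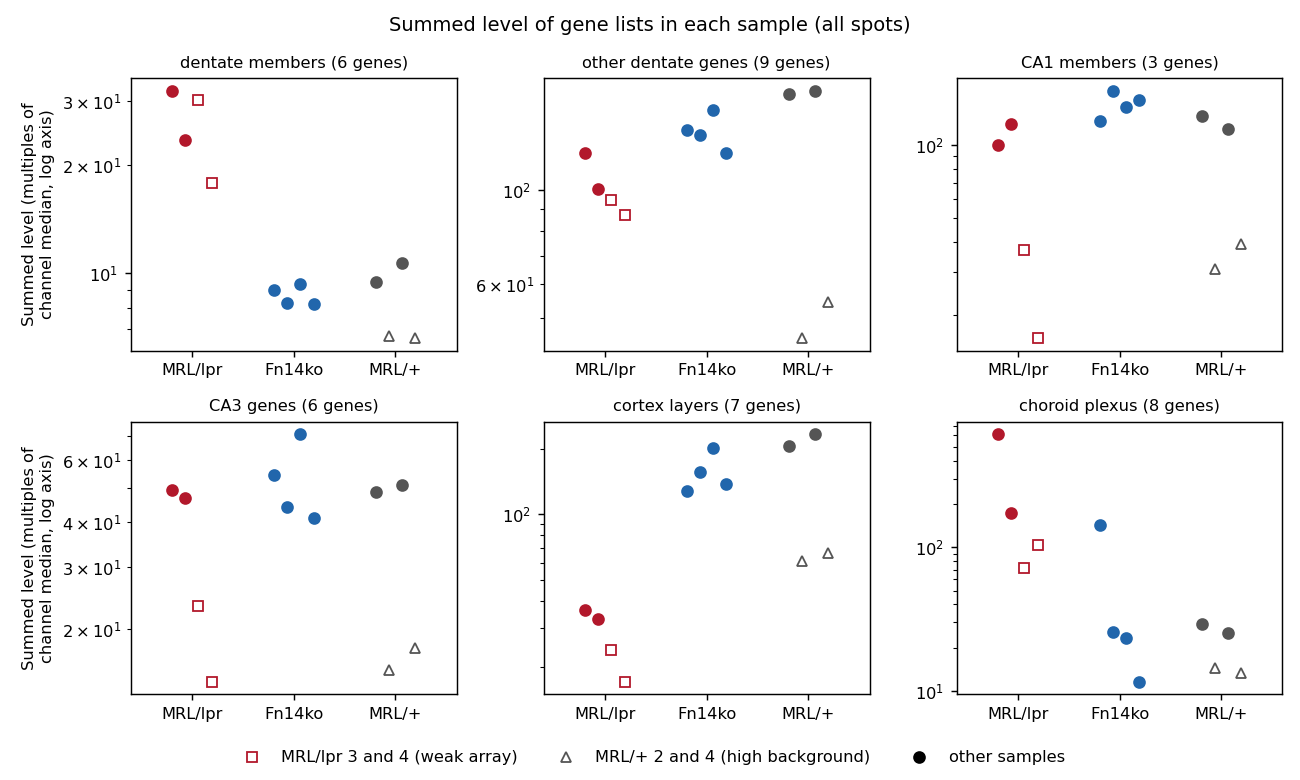
Summed level of 6 gene lists in the 12 samples, in multiples of the channel median over all spots on a log axis; open squares are the weak MRL/lpr array, open triangles the MRL/+ channels of high background. The dentate members sum to 17.8 to 32.1 in MRL/lpr and to 6.60 to 10.7 in the others, the cortical list runs the other way, and the choroid plexus list is highest in MRL/lpr 1 and 2; Fn14ko stands for the mice labelled so.

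As a check of the labelled tissue, detection of the granule cell markers was counted in each sample. A gene was counted where at least 1 of its spots was well above background. Of the 6 dentate markers, 6 were well above background in each of MRL/lpr replicates 1 and 2, 5 in each Cy3 sample of the other phenotypes, 3 in each Cy5 sample labelled Fn14ko and on each channel of the weak array, and 1 in each MRL/+ channel of high background. For Dsp the count rested on 1 of 11 spots in each of MRL/+ replicates 1 and 3, and on 2 and 1 of 11 on the weak array. It rested on 10 of 11 in MRL/lpr replicates 1 and 2, and on 10 and 7 in replicates 1 and 3 of the mice labelled Fn14ko. Tdo2 was missing from all 8 samples of the other 2 phenotypes. Wfs1 was well above background in all 12 samples.

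Over the 10 samples outside the weak array, the genes whose log2 levels followed Prox1 most closely were Klk8 (r = 0.974), a secreted serine protease of hippocampal neurons, Sertm1 (0.969) and Tgfb2 (0.969), a growth factor of the TGF-beta family, out of 15203 genes. Klk8 stood at 3.94 and 3.07 in the 2 MRL/lpr samples and at 0.435 to 0.897 in the others, so these correlations rest largely on 2 samples of 1 array; among the 8 others alone r was 0.783, 0.813 and 0.849. For Wfs1 the closest were Chgb (0.971), a protein of secretory granules, Arhgef7 (0.947) and Hmces (0.940), with 0.965, 0.974 and 0.951 among the 8 others. Samples of an array share a slide, and genes of a channel share its dye and depth of signal, so these values are descriptions.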

How the data were processed

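RNA of 12 hippocampi was labelled with Cy3 or Cy5 by the authors and hybridized in pairs to 6 arrays of 60-base probes. The deposited scanner files, made with Agilent Feature Extraction, hold for each spot and dye a foreground and local background intensity on a linear scale, not normalized between channels. The software's processed intensity served as an alternative. No depth applies to arrays: their number and the signal over background limit the precision.

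Following the study's methods, the median local background was subtracted from the mean foreground, and spots under 2 times background or flagged as outliers were removed. Spots valid in all samples used were kept (8864 genes with 12 samples, 17936 with 10), signals were scaled to the median of their channel, and averaged over spots and then over probes of a gene. Members without such a spot came from all 29608 genes, with signals under 1% of the channel median set to 1%. Log2 values were fitted with limma 3.58.1 in R 4.3.3 (lmFit, eBayes with a trend) with group and dye, adjusted by Benjamini-Hochberg over all genes of the fit at 0.05. Two-sided exact permutation tests of 4 against 4 were added. The fit was tested on simulated data. Python 3.11.15 and matplotlib 3.10.9 drew the figures.

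Groups and replicate numbers are those of the labels. The members, the 15 lists and the tests were chosen with earlier results of these data known. All 10 members are named, and of other lists those past the threshold, up to 4 by size, of which the text prints some and others are not reported here; further names are the 3 genes most correlated with Prox1 and with Wfs1. Lists of neurons, astrocytes, oligodendrocytes and thalamus were also counted: against MRL/+ with 12 samples 0 of 6 (3 at an unadjusted p under 0.05 in limma), 1 of 5, 1 of 5 and 1 of 8 rose in MRL/lpr and 0 fell, and without the weak array 0, 1, 1 and 2 rose and 1, 0, 0 and 1 fell. Alternatives were another signal, background correction, normalization, floor, filter, probe, dye term, weights, array block, replicate block, test and each sample left out. Replicates are separate mice, and same-numbered mice are not pairs.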

Additional observations from a re-analysis of the deposited data

Results flagged for a closer look

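The level of Lct in MRL/+ replicate 1, 0.130, was far from the 0.156 to 0.160 of the other 3 MRL/+ mice, relative to their spread. The gap to the nearest of them was 0.857 of the whole range in that phenotype. Such a gap comes up by chance in about 1 of 20 groups, and 0.130 was still below every MRL/lpr value, the lowest of which was 0.816. No other level of a member in a phenotype was flagged in this way.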

How the results depend on the processing

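The numbers of members called, 5, 6 and 0 against MRL/+, against mice labelled Fn14ko and between the latter and MRL/+, moved with several settings, and the cause was not tested. For most of these settings the share of all genes called is not given, so the counts cannot be set beside it. With all spots kept 3 passed against MRL/+, with quantile normalization 3 passed against mice labelled Fn14ko, and with the array as a random block or the methods' heteroscedastic test after adjustment 0 passed in either comparison. Between mice labelled Fn14ko and MRL/+, 6 passed with estimated sample weights, 1 in the methods' test unadjusted and 3 without the weak array. Leaving out 1 sample at a time gave 2 to 9, 3 to 10 and 0. The first fell to 2 without MRL/+ replicate 3 and 3 without any other MRL/+ replicate, the second fell to 3 without MRL/lpr replicate 3 or replicate 2, 3 or 4 of the mice labelled Fn14ko, and both peaked without MRL/lpr replicate 2. The replicate block, with numbers that do not pair the mice (correlations of same-numbered deviations from -0.40 to 0.50), gave 4, 5 and 0. Without the weak array, settings chosen after seeing the data gave 8 (array block) in place of 5 against MRL/+, and 5 (array block), 0 (without the Cy5 channels of MRL/+) and 0 to 4 (1 sample left out: 0 without replicate 2 or 4 of either group, 1 without replicate 3 of either) in place of 3 between mice labelled Fn14ko and MRL/+.

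The dentate minus CA1 difference from mice labelled Fn14ko, 1.94, was 1.23 with quantile normalization and 0.96 with loess; over leave-one-out it lay between 1.70 and 2.14, and that from MRL/+ between 0.75 and 1.62. Between mice labelled Fn14ko and MRL/+ it was -0.76, but 0.16 with the processed signal and 0.44 without MRL/+ replicates 2 and 4, the latter chosen after seeing the data. Of the log2 fold changes of single members under the alternatives, 635 kept their direction and side of the threshold, 86 lost and 31 gained a call, and 16 changed sign. Between mice labelled Fn14ko and MRL/+, Lct turned to 0.44 (all spots), 0.42 (processed signal), 0.20 (quantile) and 0.042 (loess). In that comparison Prox1 turned to 0.085 (quantile), and Dsp to 0.11 (quantile) and 0.090 (loess). Calb1 turned to -0.10 there (quantile and loess) and to -0.17 without the weak array, where its spots changed from all to filtered. With all spots kept without that array, Calb1 stayed at 0.50. Tdo2 turned to 0.017 without MRL/+ replicate 2, against -0.83 without replicate 3. Pou3f1 against mice labelled Fn14ko turned to -0.26 with all spots. Wfs1 against MRL/+ turned to 0.28 with estimated weights and 0.53 without the weak array. Calb1 in MRL/lpr turned to 0.025 against MRL/+ and 0.19 against mice labelled Fn14ko without that array, again with filtered in place of all spots. With all spots kept it was at 0.18 and -0.32, so only the first changed sign. With dim samples on 1 MRL/lpr array and in 2 MRL/+ channels, differences of low members there could not be resolved.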
